A study of Homo sapiens with 9 samples.

Results

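H19, IGF2, IGF2BP1, IGF2BP2, IGF2BP3, LIN28A, LIN28B and HMGA2 are genes of the fetal growth programme that many tumours express again. These 8 genes were taken by symbol from the 67140 genes of a count table of DMS273 cells, a line from a human small cell lung cancer. They were selected on their levels and changes between genotypes in an earlier reading of the same counts, so these are given as a description, with no test. A second identifier that carries the H19 symbol holds no count and is left aside. The other 8 identifiers, 1 for each gene, passed the filter on low counts.

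The series asks about drug resistance in this cancer, and none of its 9 libraries comes from drug-treated cells. All groups share the parental line, serum-supplemented RPMI medium and CRISPRv2 delivery of guides. The control cells (guide sgScr, genotype WT), the ATG7 KO cells (guide sgATG7) and the ATG7/SQSTM1 KO cells (guides against both genes) have 3 total RNA libraries each, made after removal of ribosomal RNA. ATG7 is the E1-like enzyme that starts the lipid conjugation of LC3 proteins in autophagy, and SQSTM1 (p62) is a cargo receptor that autophagy degrades. The labels say neither whether the cells of a genotype are 1 clone or a pool, nor whether the libraries of a group are separate cultures. Spreads and p-values may therefore measure technical variation between samples.

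H19 is a long noncoding RNA made from the maternal allele of an imprinted domain, and IGF2, made from the paternal allele next to it, is a growth factor that signals through IGF1R and INSR. The IGF2BP proteins bind mRNAs, IGF2 and H19 among them, and protect many of them from decay, with a preference for m6A-marked sites. LIN28A and LIN28B block the maturation of let-7 microRNAs. Mature let-7 in turn represses LIN28B, HMGA2 and IGF2BP genes, in a loop that is most active in the embryo.

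The main sequences shown for this group are the let-7 seed and its matches, which not all 8 genes hold. In the RefSeq table (GRCh38.p14), 11 mature microRNAs from 14 hairpin genes share the seed GAGGUAG, and 3 of them are shown because they differ outside the seed. Capitals mark the seed, bases 2 to 8.
let-7a-5p: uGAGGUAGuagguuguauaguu
let-7e-5p: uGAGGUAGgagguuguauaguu
miR-98-5p: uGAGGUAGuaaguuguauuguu

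H19 also hosts a microRNA hairpin, MIR675, whose mature products have other seeds. They lie on the minus strand of chromosome 11 (chr11:1996800-1996822 for the 5p arm and chr11:1996768-1996787 for the 3p arm) and are shown because H19 itself holds no let-7 match. Neither these nor the let-7 microRNAs were measured in these libraries. The MIR675 identifier held 1 count in each of the 9 libraries.
miR-675-5p: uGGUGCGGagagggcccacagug
miR-675-3p: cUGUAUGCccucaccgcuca

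The let-7 seed match, CTACCTC on the transcript strand, was counted in the longest GENCODE 29 3′ UTR of each coding gene. IGF2BP1 and LIN28B held 4 matches each, in UTRs of 6206 and 4549 bases. Of 19133 coding genes, 9.7% held at least 1 match and 0.063% held 4 or more, with a median UTR of 1104 bases. IGF2BP2, IGF2BP3 and LIN28A held 1 each, while IGF2 and the longest H19 transcript held none. The longest HMGA2 UTR, which belongs to an isoform with another last exon, held none either. Over all annotated UTRs, with each position counted once, HMGA2 held 4 matches, all in a UTR of 3003 bases, and the other genes kept their numbers. With the shorter match of 6 bases, 24.5% of coding genes held at least 1, and the numbers were 6 in IGF2BP1, 5 in LIN28B, 2 in IGF2BP2 and 1 in IGF2, IGF2BP3, LIN28A and HMGA2. A match is a stretch of letters and was not tested as a binding site.

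The sites of IGF2BP1 and LIN28B are shown in full because these genes hold the same number of matches and had different levels across the genotypes, and 1 HMGA2 site is added from the other UTR. Each is written 5′ to 3′ on the plus strand of GRCh38 with the match in capitals. An adenine after the match, opposite the first base of let-7, followed 3 of the 4 IGF2BP1 matches and 2 of the 4 LIN28B matches.
IGF2BP1 chr17:49051061-49051083: tgtgtgcgaagtaaaCTACCTCa
IGF2BP1 chr17:49053698-49053720: cagcagtgctagtaaCTACCTCa
IGF2BP1 chr17:49054352-49054374: gtataaatggattaaCTACCTCa
IGF2BP1 chr17:49054997-49055019: tcacttttgttttatCTACCTCt
LIN28B chr6:105078812-105078834: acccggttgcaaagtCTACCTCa
LIN28B chr6:105081239-105081261: tactgatgatagtaaCTACCTCt
LIN28B chr6:105081421-105081443: gtttacagcaaaaggCTACCTCa
LIN28B chr6:105082860-105082882: aaatgatggtgttgaCTACCTCt
HMGA2 chr12:65963298-65963320: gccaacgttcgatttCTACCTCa

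The libraries held between 28675576 and 34222098 counts, 3.87% to 6.04% of them mitochondrial. ATG7 averaged 27.1 CPM (counts scaled to library size, with TMM factors) in control, 11.7 in ATG7 KO and 10.6 in ATG7/SQSTM1 KO, and SQSTM1 averaged 376, 391 and 51.9 CPM, so each group carried the pattern its label names. The neuroendocrine identity of the line rested on NEUROD1 (190.2 to 197.9 CPM in control), while POU2F3 stayed under 1 CPM in every library. By edgeR's quasi-likelihood test (adjusted p under 0.05), 56.7% of 18847 tested genes changed in ATG7 KO against control (28.4% higher, 28.3% lower). In ATG7/SQSTM1 KO against control 38.6% changed (19% higher, 19.6% lower), and between the knockouts 60.5% (30.5% higher, 29.9% lower). Of the 8 genes, 5 passed the same threshold in the first comparison (3 higher, 2 lower), 5 in the second (3 higher, 2 lower) and 7 in the last (2 higher, 5 lower), and nothing is read from these counts. In the same order, the 3 libraries of both groups did not overlap for 5, 5 and 6 of the 8 genes, beside 62.4%, 48.8% and 65.9% of all tested genes. Both comparisons with control share the control libraries, and their values are set side by side.

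**Figure D1:**
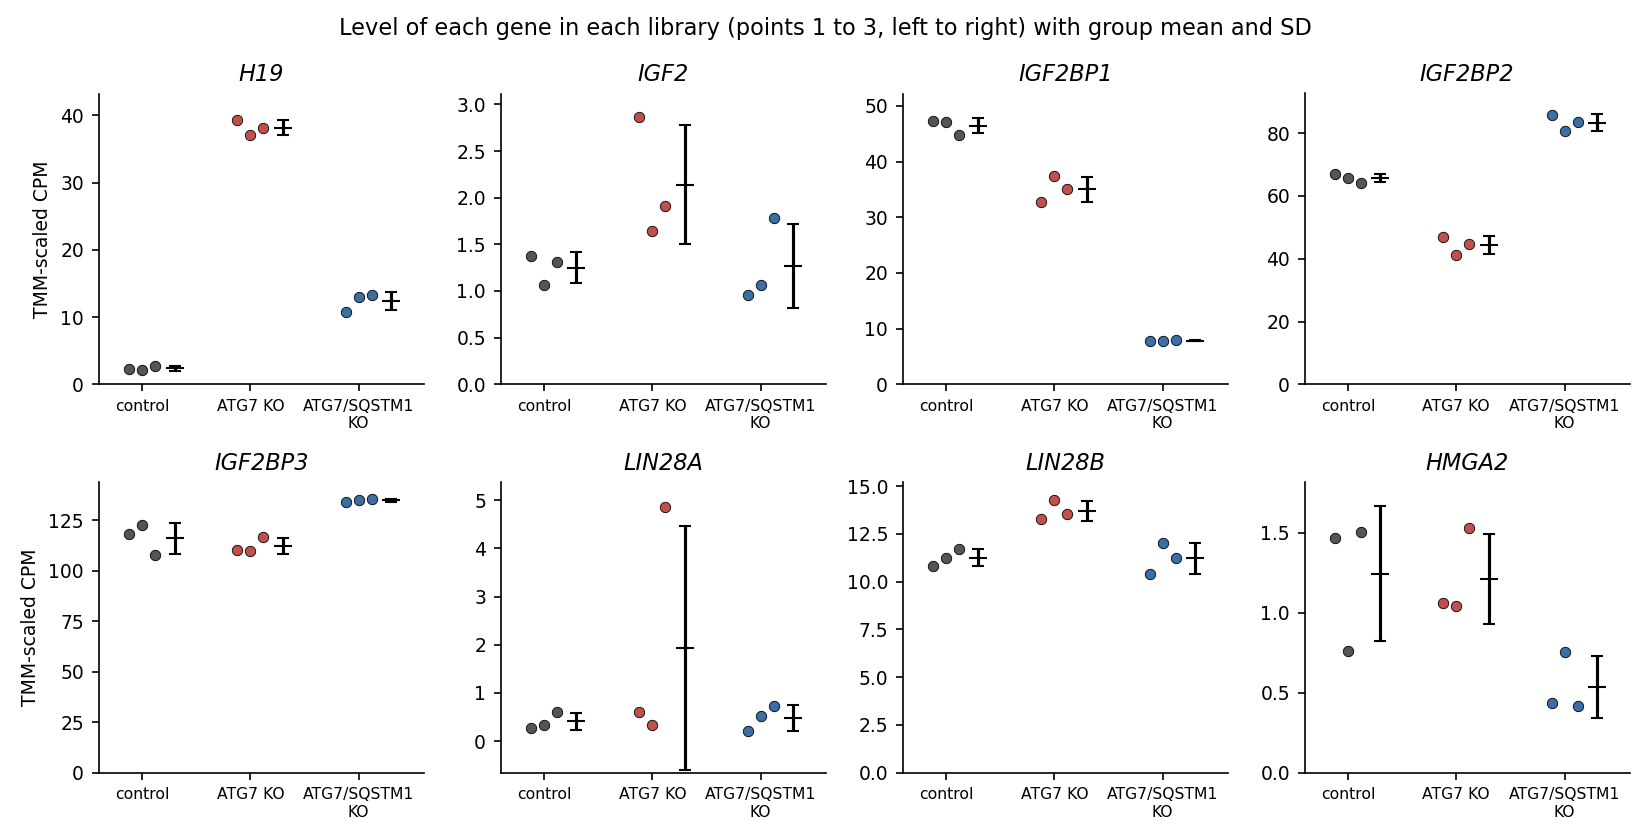
TMM-scaled CPM (vertical axes, linear and on a separate scale for each gene) of the 8 genes in the 3 control, 3 ATG7 KO and 3 ATG7/SQSTM1 KO libraries. Points are libraries, and the bar beside them is the group mean ± SD. H19 is highest in ATG7 KO, IGF2BP1 is lowest in ATG7/SQSTM1 KO, and a single ATG7 KO library carries LIN28A, whose SD bar there reaches below 0.

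H19 (ENSG00000130600, GRCh38 chromosome 11, 1995176 to 2001470, minus strand, noncoding) was low in control and high in both knockouts, most of all with ATG7 alone deleted. Its control libraries held 2.32, 2.07 and 2.79 CPM, from 76, 60 and 87 counts. Those of ATG7 KO held 39.3, 37.1 and 38.1 CPM, and those of ATG7/SQSTM1 KO 10.8, 13.0 and 13.3 CPM. The 3 groups did not overlap, and each gap was wider than the spread within any group. H19 was thus 15.9-fold higher in ATG7 KO than in control (log2 change 3.99, SE 0.10), and 20 of the 18847 tested genes had a larger rise. In ATG7/SQSTM1 KO it was 5.14-fold higher than in control (2.36, SE 0.10), where 76 genes rose more, and 3.10-fold lower than in ATG7 KO (−1.63, SE 0.08).

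The summed levels of 4 marker lists are given beside H19. The fibroblast sum was the 1 that ran in its order (control lowest, ATG7 KO highest), though not all of its genes did. The summed level of 10 fibroblast genes was 201.6 to 218.5 CPM in control, 744.6 to 786.9 in ATG7 KO and 455.9 to 476.5 in ATG7/SQSTM1 KO. Against control, 6 of 9 tested genes were higher in ATG7 KO, and 7 were higher and 1 lower in ATG7/SQSTM1 KO. Between the knockouts 3 were higher in the double knockout (POSTN, DCN and PDGFRA) and 5 lower (COL1A1, COL3A1, LUM, FAP and PDGFRB). The 11 neuroendocrine genes summed to 1230 to 1296 CPM in control, 891.4 to 919.1 in ATG7 KO and 1345 to 1371 in ATG7/SQSTM1 KO. UCHL1 and STMN1 had the highest levels among them (391 and 445 CPM in control). All 10 tested were lower in ATG7 KO, while 4 were higher and 3 lower (NCAM1, INSM1 and CHGB) in ATG7/SQSTM1 KO against control. The 7 blood cell genes summed to 3.91 to 5.03 CPM in control, 7.79 to 8.50 in ATG7 KO and 3.09 to 3.62 in ATG7/SQSTM1 KO, with CD3E, HBB and LYZ at 0 throughout. Of the 3 tested, CD68 (log2 change 1.34) and PTPRC (3.06) were higher and 1 was lower in ATG7 KO. The 6 keratinocyte and airway genes summed to 3.05 to 3.62, 9.32 to 9.49 and 2.71 to 2.93 CPM in the same order, with SCGB1A1 at 0, and TP63, the only one tested, was higher in ATG7 KO (1.54). Their part in the H19 values was not tested, and in bulk RNA fewer cells of a type and less RNA per cell cannot be told apart.

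IGF2 (ENSG00000167244, chromosome 11, 2129112 to 2149603, minus strand, protein coding) was scarce in all libraries. Its control libraries held 1.37, 1.07 and 1.31 CPM, those of ATG7 KO 2.87, 1.64 and 1.91 CPM and those of ATG7/SQSTM1 KO 0.962, 1.06 and 1.78 CPM, from 31 to 84 counts. ATG7 KO libraries lay above all control libraries, while the double knockout overlapped both other groups. The log2 changes were 0.77 (SE 0.26) in ATG7 KO and 0.02 (SE 0.27) in ATG7/SQSTM1 KO against control, and −0.75 (SE 0.26) between the knockouts. ATG7 KO replicate 1 carried much of this: without it the first change was 0.51 and the last −0.49. The first change was 0.67 without control replicate 2. The last was −0.59 and −0.65 without ATG7/SQSTM1 KO replicate 1 or 2. Leaving out ATG7/SQSTM1 KO replicate 3 turned the second change to −0.31.

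H19 and IGF2, the neighbours of 1 imprinted domain, differed in size. In ATG7 KO the H19 change was 3.99 and the IGF2 change 0.77 on the log2 scale, and in ATG7/SQSTM1 KO the H19 change was 2.36 with IGF2 at 0.02. INS-IGF2, which shares IGF2 exons, and MIR483, which lies in an IGF2 intron, held no counts. The opposite-strand IGF2-AS reached 2 counts in 1 ATG7 KO library.

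The genes around the H19 and IGF2 domain on 11p15.5 were read from a list of 18, of which 10 were tested. In ATG7 KO, 5 were higher (CTSD, CD81, TSSC4, PHLDA2 and SLC22A18) and 1 was lower, the cell cycle inhibitor CDKN1C, with a median log2 change of 0.20 beside −0.02 over all tested genes. CTSD, the lysosomal protease cathepsin D, rose from 129 ± 4.1 to 185 ± 2.9 CPM (log2 change 0.52, SE 0.03, edgeR adjusted p = 1.22e-11). In ATG7/SQSTM1 KO, CD81 and SLC22A18 were higher and CTSD was lower (−0.21, SE 0.03, adjusted p = 3.97e-05). Between the knockouts CDKN1C and KCNQ1OT1 were higher and CTSD, CD81, TSSC4 and PHLDA2 were lower in the double knockout. Single libraries moved these small counts: without ATG7 KO replicate 1 the ATG7 KO comparison had 0 lower and the comparison of the knockouts 1 higher, and without control replicate 2 the double knockout had 1 higher. The largest rise among the 10 in ATG7 KO was 0.91 (PHLDA2), against 3.99 for H19. Counting instead every tested gene within 250 kb of H19, 3 of 5 were higher in ATG7 KO and none lower: IGF2, CTSD and AC068580.4, which overlaps CTSD and is not on the list of 18, at 1.67 (SE 0.50, edgeR adjusted p = 0.0221). In ATG7/SQSTM1 KO none of the 5 was higher and 2 were lower, CTSD and IFITM10. Between the knockouts none was higher and 3 were lower: CTSD (−0.73), IFITM10 (−2.31) and IGF2 (−0.75). Over all tested genes, 28.4% were higher in ATG7 KO, 19.6% lower in ATG7/SQSTM1 KO and 29.9% lower between the knockouts. IFITM10 was scarce, at 0.812 ± 0.26 CPM in control and 0.309 ± 0.22 CPM in the double knockout (−1.35, SE 0.50, edgeR adjusted p = 0.049).

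Imprinted genes as a list held calls in both directions. Of 27 tested, 6 were higher and 12 lower in ATG7 KO, 6 higher and 5 lower in ATG7/SQSTM1 KO, and 14 higher and 6 lower between the knockouts. The median log2 changes were −0.13, −0.01 and 0.15, beside −0.02, −0.01 and 0.02 over all tested genes. The 5 lower in ATG7/SQSTM1 KO were TP73, PEG10, SGCE, RB1 and BLCAP. TP73, a relative of p53, averaged 78.3 CPM in control. It fell to 26.7 CPM in ATG7 KO (−1.55, SE 0.05, edgeR adjusted p = 3.4e-17) and to 59.4 CPM with both genes deleted (−0.40, SE 0.04, adjusted p = 1.63e-07). PEG10, a retrotransposon-derived gene, stood at 488, 335 and 419.6 CPM, and ZDBF2 rose by 1.20 (SE 0.07) from ATG7 KO to the double knockout (adjusted p = 5.09e-12).

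Regulators of imprinting and of the H19 and IGF2 domain held calls in both directions. Of 18 tested, the insulator factor CTCF, the cohesin subunits RAD21 and SMC1A, YY1 and WT1 were higher in ATG7 KO, and 6 were lower, among them E2F1 (−0.35, SE 0.04, edgeR adjusted p = 5.62e-08). In ATG7/SQSTM1 KO, TET1, PLAGL1, RAD21 and ZNF445 were higher. TET1, an enzyme that oxidises methylcytosine, fell from 21.1 to 14.7 CPM in ATG7 KO (−0.52, SE 0.06, edgeR adjusted p = 1.8e-07). It rose to 35.1 CPM in ATG7/SQSTM1 KO (0.73, SE 0.06, adjusted p = 1.45e-09), an order unlike that of H19. DNMT1 was the single lower call in the double knockout (−0.07, adjusted p = 0.0485), and it was lost when any 1 of the 6 libraries compared was left out. Between the knockouts 6 were higher and 5 lower, the latter being YY1, CTCF, RAD21, SMC1A and WT1.

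Per length, IGF2BP2 and IGF2BP3 were the most abundant protein-coding members in all 3 groups, and the 3 paralogues did not move together. IGF2BP1 (ENSG00000159217, chromosome 17, 48997412 to 49055650, plus strand, protein coding) held 47.2, 47.1 and 44.9 CPM in the control libraries and 32.8, 37.3 and 35.0 CPM in those of ATG7 KO. The double knockout libraries held 7.73, 7.83 and 7.87 CPM, from 228 to 265 counts each, against 1367 to 1548 in control. The 3 groups did not overlap, and the double knockout libraries lay far below both others. The log2 change was −0.40 (SE 0.05) in ATG7 KO and −2.57 (SE 0.06) in ATG7/SQSTM1 KO against control, and −2.17 (SE 0.06) between the knockouts. In the double knockout this was a 5.94-fold lower level, and 51 of the 18847 tested genes fell more.

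Against control, the genes next to IGF2BP1 did not share its change. Of 8 tested genes within 250 kb, none fell beyond −0.26 on the log2 scale in ATG7/SQSTM1 KO against control, and the 2 lower calls were ATP5MC1 (−0.18, SE 0.04, edgeR adjusted p = 0.000298) and UBE2Z (−0.17, adjusted p = 0.00189). In ATG7 KO, where IGF2BP1 was lower, 6 of these 8 were higher and none lower, beside 28.4% and 28.3% of all tested genes. Of the 6, B4GALNT2 (0.227 CPM in control, 0.894 in ATG7 KO) and TTLL6 (0.442 and 0.989 CPM) averaged under 1 CPM. Between the knockouts, where IGF2BP1 was lower (−2.17), 6 of the 8 were lower and none higher, beside 29.9% and 30.5% of all tested genes. The lowest of these changes was −1.86 (B4GALNT2). An antisense transcript inside IGF2BP1, AC091133.3, held 7, 5 and 6 counts in control, 3, 4 and 0 in ATG7 KO and 0 in each double knockout library. The counts are too few for a fold.

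IGF2BP2 (ENSG00000073792, chromosome 3, 185643739 to 185825056, minus strand, protein coding), the paralogue that is also expressed in many adult tissues, was lowest in ATG7 KO and highest in the double knockout. Its control libraries held 66.9, 65.7 and 64.3 CPM, those of ATG7 KO 47.0, 41.4 and 44.8 CPM and those of ATG7/SQSTM1 KO 85.8, 80.6 and 83.7 CPM. The groups did not overlap. The log2 changes were −0.56 (SE 0.04) in ATG7 KO and 0.35 (SE 0.04) in ATG7/SQSTM1 KO against control, on opposite sides of 0, and 0.91 (SE 0.04) between the knockouts.

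IGF2BP3 (ENSG00000136231, chromosome 7, 23310209 to 23470467, minus strand, protein coding), an oncofetal paralogue widely used as a tumour marker, varied least of the 3. Its control libraries held 118, 123 and 108 CPM, those of ATG7 KO 110.4, 109.6 and 117 CPM and those of ATG7/SQSTM1 KO 134, 135 and 136 CPM. Control and ATG7 KO overlapped, and the double knockout lay above both. The log2 changes were −0.05, 0.21 and 0.27 (SE 0.04 each). The first rested on single control libraries: it was −0.01 without control replicate 2 and −0.10 without control replicate 3. MALSU1, a gene of the opposite strand that overlaps IGF2BP3, held 1565 to 1870 counts in each library. The strand setting of the counting is not given in the sources used here, so reads in the overlap may be shared.

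**Figure D2:**
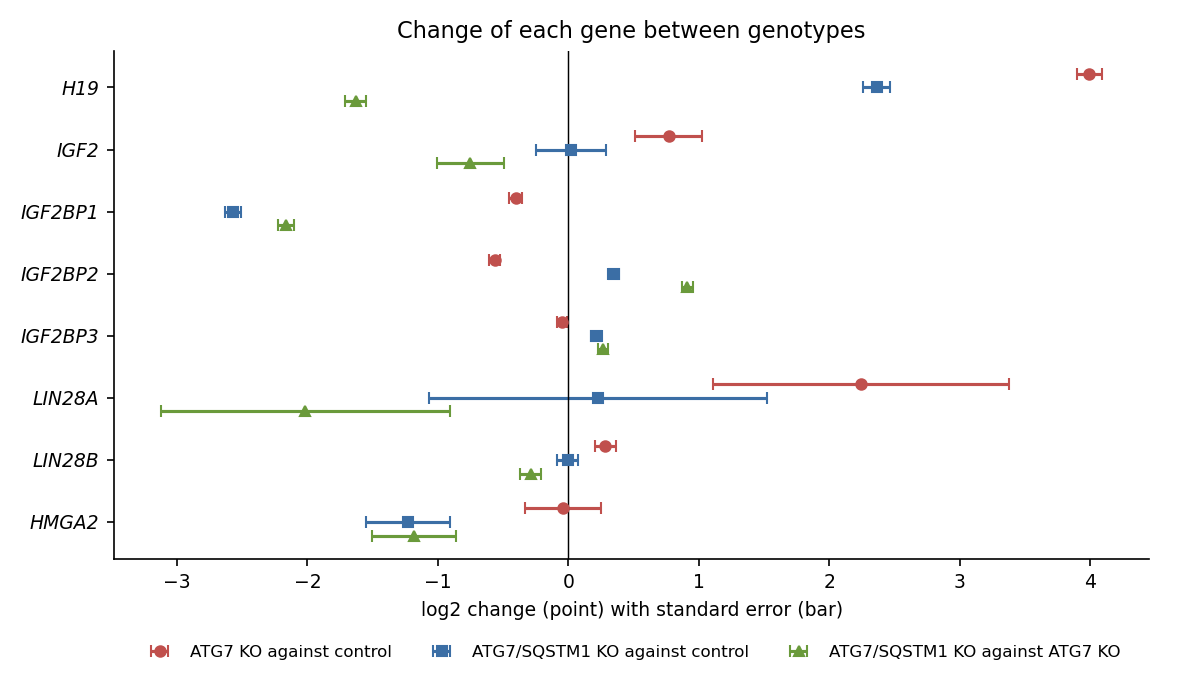
Log2 change (horizontal axis) of each gene in ATG7 KO against control (circles), ATG7/SQSTM1 KO against control (squares) and ATG7/SQSTM1 KO against ATG7 KO (triangles), with standard errors as bars. H19 lies at 3.99 and 2.36 against control, IGF2BP1 at −0.40 and −2.57, and LIN28A has standard errors above 1.

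Per length of exon, the makeup of the IGF2BP family shifted in the double knockout. IGF2BP1 made up 15.6% ± 0.17 (SD, n = 3) of the summed CPM per kb of the 3 genes in control and 14.6% ± 1.2 in ATG7 KO, with overlapping libraries. In the double knockout it made up 2.50% ± 0.054, with libraries at 2.44%, 2.55% and 2.51%. IGF2BP2 took 42.5%, 35.5% and 51.3% in the 3 groups, and IGF2BP3 took 41.8%, 49.9% and 46.2%. The sum was 32.6 ± 1.3 CPM per kb in control, 26.4 ± 0.65 in ATG7 KO and 34.3 ± 0.53 in the double knockout. The family as a whole was thus lowest in ATG7 KO, while IGF2BP1 was lowest in ATG7/SQSTM1 KO. The shares depend on the length used. With that of the longest transcript, IGF2BP3 stood at 27.3, 26.4 and 31.7 CPM per kb in the 3 groups. IGF2BP2 then stood at 17.8, 12.0 and 22.6, and IGF2BP1 at 5.6, 4.2 and 0.94.

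**Figure D3:**
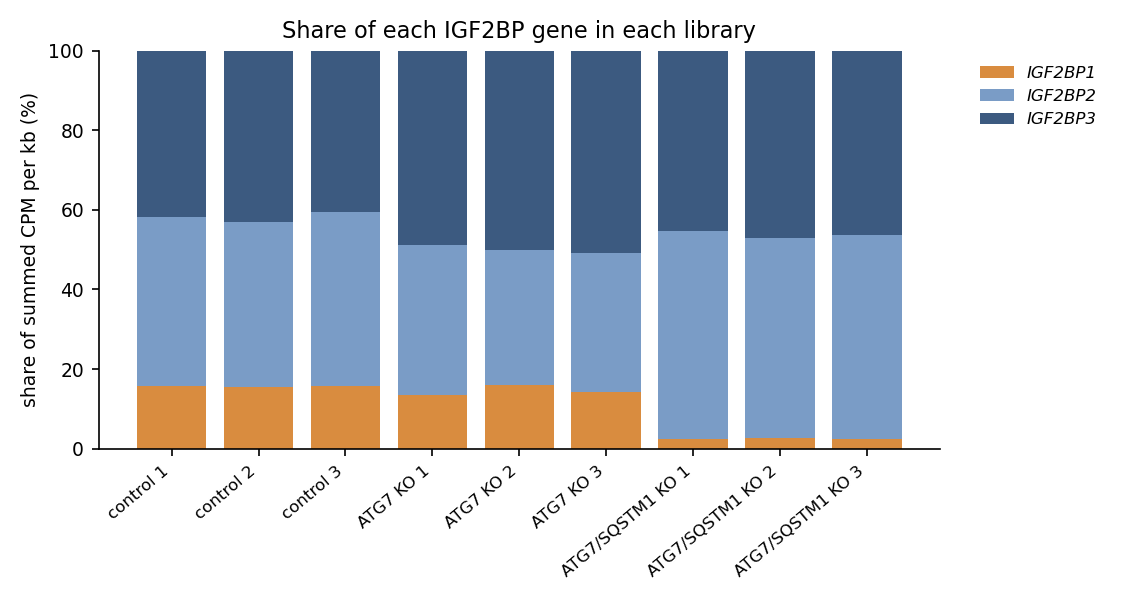
Share (vertical axis, percent) of IGF2BP1, IGF2BP2 and IGF2BP3 in their summed CPM per kb of exon in each of the 9 libraries, as stacked bars. IGF2BP1 holds 13.6% to 15.9% in the control and ATG7 KO libraries and 2.44% to 2.55% in the ATG7/SQSTM1 KO libraries.

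The writers, erasers and readers of m6A and the protein partners of the IGF2BPs were read from 23 identifiers of 22 genes. MATR3 had 2 of them, at 0.88 (SE 0.42) and −0.42 (SE 0.19) in ATG7 KO, and neither was called in any comparison. Of the 23 identifiers, 9 were higher and 3 lower in ATG7 KO. Against control, ATG7/SQSTM1 KO had 3 higher and 9 lower. The medians of log2 change were 0.07 and −0.07, beside −0.02 and −0.01 over all tested genes. Those lower in ATG7 KO included ALKBH5 and METTL3, and the 3 higher in the double knockout were FTO, ALKBH5 and YBX1. SYNCRIP, an RNA-binding partner of IGF2BP1, rose in ATG7 KO (648 to 773 CPM, log2 change 0.26, SE 0.02, edgeR adjusted p = 3.34e-09). It fell in ATG7/SQSTM1 KO (to 518 CPM, −0.32, SE 0.02, adjusted p = 3.46e-10), where IGF2BP1 itself was at its lowest. WTAP, a subunit of the m6A writer, rose from 97.0 to 120.4 CPM in ATG7 KO and stood at 80.5 CPM in the double knockout (0.31 and −0.27, SE 0.04 each, adjusted p = 1.62e-07 and 4.07e-06). FTO, an m6A eraser, rose from 62.3 CPM in control to 133 CPM in the double knockout (1.09, SE 0.03, adjusted p = 9.55e-16). Between the knockouts 5 were higher, FTO and YBX1 among them, and 12 lower. Without ATG7 KO replicate 3 the count higher was 3.

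LIN28B (ENSG00000187772, chromosome 6, 104936616 to 105083332, plus strand, protein coding) was the more abundant LIN28 gene per length in all 3 groups. Its control libraries held 10.8, 11.2 and 11.7 CPM, those of ATG7 KO 13.3, 14.3 and 13.5 CPM and those of ATG7/SQSTM1 KO 10.4, 12.0 and 11.2 CPM. ATG7 KO lay above both other groups, which overlapped each other. The log2 changes were 0.28 (SE 0.08), −0.01 (SE 0.08) and, between the knockouts, −0.29 (SE 0.08). IGF2BP1 holds as many let-7 matches as LIN28B, and its change in the double knockout was −2.57 against −0.01 for LIN28B. Whether the matches act in these cells was not tested.

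LIN28A (ENSG00000131914, chromosome 1, 26410778 to 26429722, plus strand, protein coding) had few counts in all libraries but 1. It had 9, 10 and 19 counts in control, 18, 10 and 152 in ATG7 KO and 7, 15 and 23 in ATG7/SQSTM1 KO. In CPM the ATG7 KO libraries stood at 0.614, 0.335 and 4.85, and the other 6 libraries between 0.204 and 0.733. ATG7 KO replicate 3 thus stood apart, and the other ATG7 KO libraries overlapped control. The log2 change of ATG7 KO against control was 2.24 (SE 1.13) with that library and 0.23 without it, and that between the knockouts was −2.02 (SE 1.11) with it and 0.01 without it. Against control the double knockout was at 0.23 (SE 1.30), and at −0.22 without its replicate 3. In the same ATG7 KO library, 2 other genes, AL139099.2 (1061 counts, at most 35 elsewhere) and AP000295.1 (331 counts, at most 26 elsewhere), were at least 4-fold above every other library with at least 50 counts. BEST1 met these limits in ATG7/SQSTM1 KO replicate 3, and no gene met them in the other 7 libraries.

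HMGA2 (ENSG00000149948, chromosome 12, 65824131 to 65966295, plus strand, protein coding) encodes a chromatin protein of embryonic cells that binds AT-rich DNA. It was scarce: the control libraries held 1.47, 0.758 and 1.51 CPM, the ATG7 KO libraries 1.06, 1.04 and 1.53 CPM and the ATG7/SQSTM1 KO libraries 0.437, 0.755 and 0.414 CPM. The double knockout libraries lay below all others, with its second library at 0.755 CPM just under the second control library at 0.758. These values rest on 13 to 22 counts in the double knockout and 22 to 48 elsewhere. The log2 change against control was −0.04 (SE 0.29) in ATG7 KO and −1.23 (SE 0.32) in ATG7/SQSTM1 KO, and it was −1.18 (SE 0.32) between the knockouts. In ATG7 KO its sign turned when single libraries were left out (−0.29 to 0.11). The overlapping antisense genes RPSAP52 and HMGA2-AS1 had at most 2 counts in a library.

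In the double knockout HMGA2, IGF2BP1 and LIN28B, the members with 4 let-7 matches in an annotated UTR, thus had log2 changes of −1.23, −2.57 and −0.01. In ATG7 KO they had −0.04, −0.40 and 0.28. Mature let-7 was not measured, nor was it measured which HMGA2 UTR these cells use. Whether the matches have a part in these changes was not tested. The HMGA2 value in ATG7 KO and the LIN28B value in the double knockout took either sign as single libraries were left out.

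The machinery of let-7 maturation and of LIN28 action, 20 tested genes, held calls in both directions. In ATG7 KO, 5 were higher (TRIM25, SYNCRIP, DICER1, XPO5 and DGCR8) and 4 lower (HNRNPA1, PRKRA, TUT4 and MSI2), with 3 higher when libraries were scaled by their totals alone. In the double knockout, 6 were higher and 5 lower (SYNCRIP, XPO5, KHSRP, DICER1 and DGCR8), and between the knockouts 7 were higher and 6 lower. Over all tested genes the shares higher and lower were 28.4% and 28.3%, 19% and 19.6%, and 30.5% and 29.9%. The list medians of log2 change were −0.02, 0.02 and 0.06, beside −0.02, −0.01 and 0.02 over all tested genes. TRIM25, which activates the uridylation of let-7 precursors bound by LIN28A, stood at 131 CPM in control, 190.0 in ATG7 KO (log2 change 0.54, SE 0.03, edgeR adjusted p = 2.31e-12) and 131 in the double knockout. XPO5, which exports microRNA precursors from the nucleus, fell from 275 to 226 CPM in ATG7/SQSTM1 KO (−0.29, SE 0.03, adjusted p = 4.22e-08). HNRNPA1, which binds the let-7a precursor, fell by 0.24 (SE 0.02) in ATG7 KO (adjusted p = 2.69e-09).

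Of 5 tested transcripts that host let-7 genes, MIR100HG, MIR99AHG, MIRLET7BHG and HUWE1 were higher and MIRLET7A1HG was lower in ATG7 KO. MIRLET7A1HG stood at 6.55, 4.12 and 7.99 CPM in control, ATG7 KO and ATG7/SQSTM1 KO (log2 change −0.67, SE 0.11, edgeR adjusted p = 2.24e-05 in ATG7 KO). MIR100HG rose from 1.02 to 2.49 CPM in ATG7 KO (1.28, SE 0.23, adjusted p = 6.76e-05). In the double knockout 2 were higher, MIRLET7BHG (0.45, SE 0.11, adjusted p = 0.00184) and MIRLET7A1HG (0.29, SE 0.11, adjusted p = 0.034). The MIRLET7A1HG call was lost without a low-count filter, without control replicate 1 or 3 and without any 1 of the double knockout libraries (adjusted p 0.055 to 0.143). Between the knockouts MIRLET7A1HG was higher, and MIR99AHG and MIR100HG were lower, in ATG7/SQSTM1 KO. Levels of host transcripts do not give the level of mature let-7.

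Genes known as let-7 targets, the 8 genes aside, moved both ways. Of 29 tested, 8 were higher and 11 lower in ATG7 KO, 6 higher and 11 lower in ATG7/SQSTM1 KO, and 11 higher and 11 lower between the knockouts. Their median log2 changes were −0.01, −0.07 and 0.03, beside −0.02, −0.01 and 0.02 over all tested genes. CCND2, a G1 cyclin, fell from 25.0 to 10.6 CPM in ATG7 KO (log2 change −1.24, SE 0.06, edgeR adjusted p = 3.27e-13) and rose to 62.4 CPM in the double knockout (1.32, SE 0.05, adjusted p = 4.43e-14). CDK6, its kinase partner, fell from 177 to 83.9 CPM in ATG7 KO (−1.08, SE 0.04, adjusted p = 3.49e-16). COL3A1, a fibrillar collagen, rose from 75.1 to 327 CPM in ATG7 KO and to 149.6 CPM in the double knockout (2.12 and 0.99, SE 0.03 each, adjusted p = 4.18e-21 and 3.27e-15).

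The receptors and binding proteins through which IGF2 acts changed in both directions. Of 17 tested genes of the IGF axis, 5 were higher in ATG7 KO (IGFBP3, IGFBP4, IGFBP6, IGF2R and PAPPA) and 7 were lower, 4 of them the receptors IGF1R and INSR and the adaptors IRS1 and IRS2. IGF1R fell from 23.5 to 8.37 CPM (log2 change −1.49, SE 0.07, edgeR adjusted p = 9.69e-14). IGF2R, which takes up IGF2 for lysosomal degradation, rose from 233 to 358 CPM (0.62, SE 0.03, adjusted p = 1.3e-13). IGFBP4, a secreted inhibitor of IGF signalling, rose from 129 to 358 CPM (1.47, SE 0.04, adjusted p = 2.17e-16), and PAPPA, the protease that cleaves it, rose as well (1.63, SE 0.25, adjusted p = 8.06e-06).

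With both genes deleted, 9 genes of the IGF axis were higher and 2, IGF1R and IGF2R, were lower than in control. IGFBP2 rose from 119.8 to 160.0 CPM (0.42, SE 0.04, edgeR adjusted p = 2.6e-07) and IGFBP5 from 115 to 151 CPM (0.40, SE 0.04, adjusted p = 1.43e-08), while neither was called in ATG7 KO. IGF1R fell by 0.36 (SE 0.07, adjusted p = 0.000132) and IGF2R by 0.25 (SE 0.03, adjusted p = 7.76e-07). Between the knockouts 10 were higher and 5 lower in the double knockout, the lower ones being IGF2R, IGFBP4, IGFBP6, IGFBP7 and PAPPA. The medians of log2 change were 0.02, 0.25 and 0.39 in the 3 comparisons, beside −0.02, −0.01 and 0.02 over all tested genes.

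**Figure D4:**
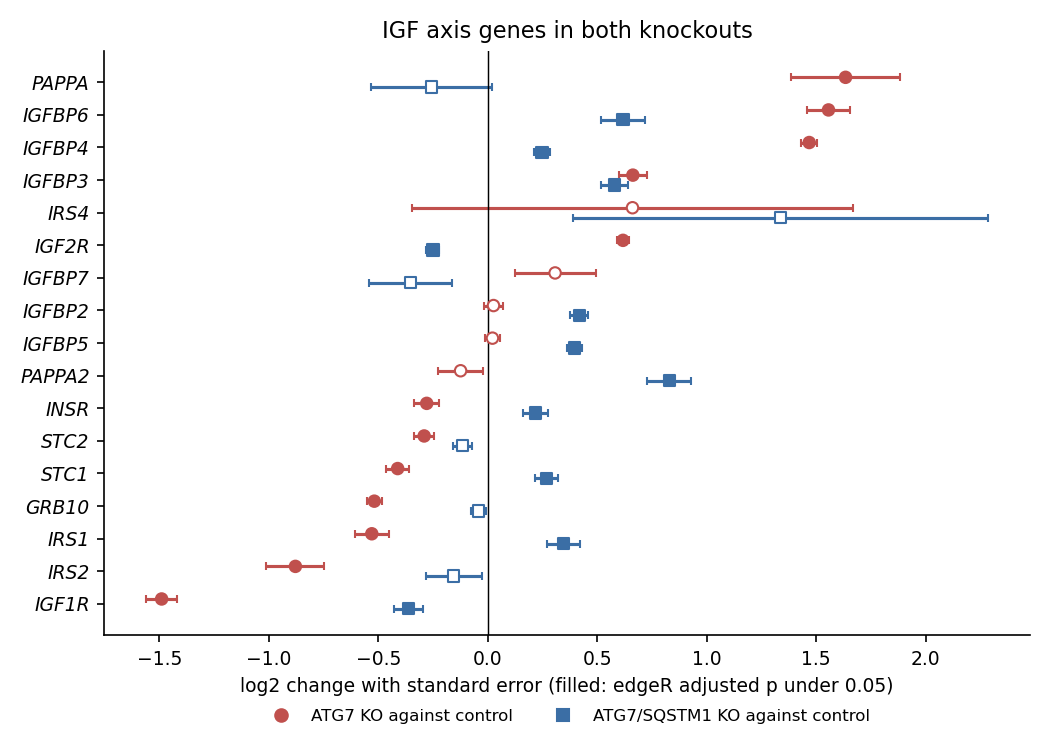
Log2 change with its standard error (horizontal axis) of the 17 tested IGF axis genes in ATG7 KO (circles) and ATG7/SQSTM1 KO (squares) against control, ordered by the change in ATG7 KO. Filled symbols passed edgeR adjusted p under 0.05: 5 higher and 7 lower in ATG7 KO, 9 higher and 2 lower in ATG7/SQSTM1 KO.

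Other oncofetal genes also held calls in both directions. Of 9 tested, SALL4, EPCAM and TPBG were higher and LGR5, PLAC1, PEG10 and GPC3 lower in ATG7 KO. SALL4 and EPCAM were also higher, and PEG10 and PLAC1 lower, in ATG7/SQSTM1 KO. LGR5, a stem cell receptor, fell from 16.9 to 5.26 CPM in ATG7 KO (log2 change −1.68, SE 0.09, edgeR adjusted p = 4.64e-13) and stood at 19.2 CPM in the double knockout. PLAC1, a trophoblast gene, fell by 1.01 (SE 0.24) in the double knockout (adjusted p = 0.0019). Between the knockouts LGR5, GPC3 and PEG10 were higher and TPBG and SALL4 lower. Over all tested genes the shares higher and lower were 28.4% and 28.3%, 19% and 19.6%, and 30.5% and 29.9% in the 3 comparisons. The list medians of log2 change were −0.01, 0.12 and 0.13, beside −0.02, −0.01 and 0.02 over all tested genes. The counts of calls in this list moved with single libraries. Without ATG7 KO replicate 2, 5 were higher in ATG7 KO and 4 lower between the knockouts, and without ATG7 KO replicate 3, 5 were higher between the knockouts. Without ATG7/SQSTM1 KO replicate 3, 4 were lower between the knockouts and 1 was higher in the double knockout against control, as was 1 without control replicate 3.

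Compared per length of exon, the order of the 8 genes changed with genotype mainly through H19 and IGF2BP1. In control, IGF2BP2 (13.9 ± 0.28 CPM per kb, SD, n = 3) and IGF2BP3 (13.7 ± 0.90) overlapped at the top. Below them came IGF2BP1 (5.09), LIN28B (1.88), H19 (0.825) and IGF2 (0.179), each apart from its neighbours, and then LIN28A (0.102) and HMGA2 (0.0807), which overlapped. In ATG7 KO, H19 (13.2 ± 0.39) overlapped IGF2BP3 (13.2 ± 0.45) at the top, above IGF2BP2 (9.37), IGF2BP1 (3.85) and LIN28B (2.28). In the double knockout the order was IGF2BP2 (17.6), IGF2BP3 (15.9), H19 (4.26), LIN28B (1.87) and IGF2BP1 (0.857), each apart from the next, so that IGF2BP1 had moved below H19 and LIN28B. IGF2 (0.182) overlapped LIN28A (0.121) there, and HMGA2 (0.0348) was lowest. With the length of the longest transcript in place of all exons, IGF2BP3 led in all 3 groups, at 27.3, 26.4 and 31.7 CPM per kb, and H19 came second in ATG7 KO at 16.3.

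**Figure D5:**
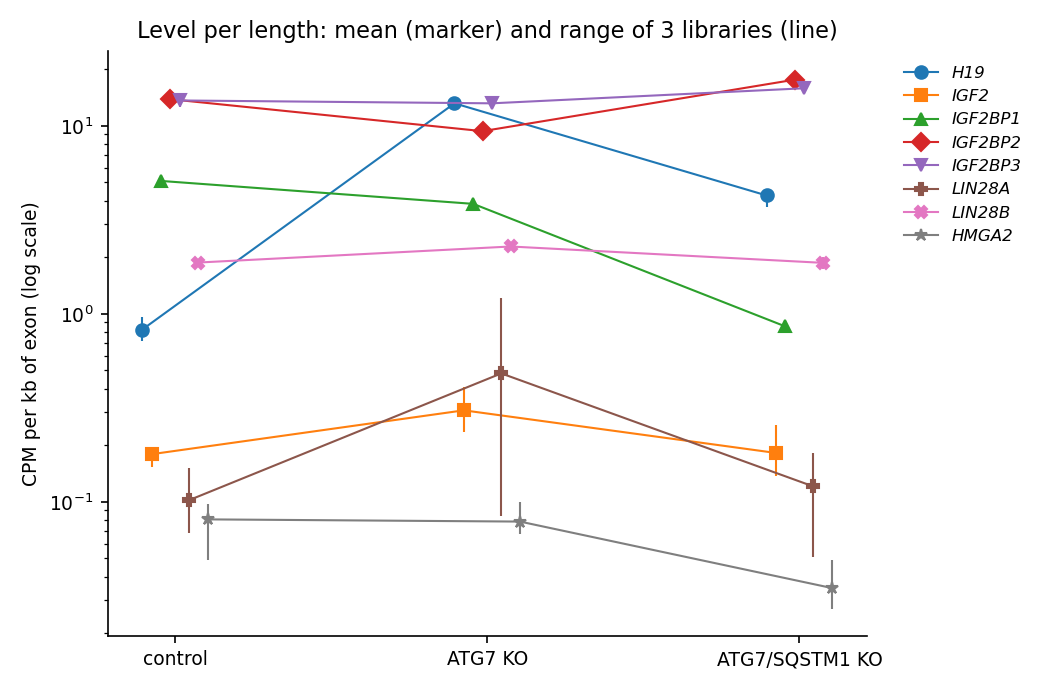
Level of each gene in CPM per kb of exon (vertical axis, log scale) in control, ATG7 KO and ATG7/SQSTM1 KO. Markers are means of 3 libraries, vertical lines span the libraries, and the joining lines only link a gene across groups. H19 goes from 0.825 to 13.2 and 4.26, and IGF2BP1 from 5.09 to 3.85 and 0.857.

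The genes that ran most like each member over the 9 libraries were sought among 13529 genes, by the root mean square difference in log2 CPM centred on control. For H19 these were AQP1 (0.59) and RET (0.61), at a distance that shows no close match. AQP1 averaged 0.817, 15.9 and 7.46 CPM in control, ATG7 KO and ATG7/SQSTM1 KO, and RET 1.33, 13.7 and 3.86. For IGF2BP1 they were MMP7 (0.17) and FENDRR (0.21). FENDRR, a long noncoding RNA, averaged 6.39, 5.99 and 1.08 CPM. IGF2BP2 was followed closely by SEPTIN10 and CLTCL1 (0.06 each), IGF2BP3 by DZIP1 (0.03) and AGO3 (0.04), and LIN28B by WDR61 (0.02) and GCC1 (0.03). Those nearest to IGF2 were SHROOM1 (0.23) and NEK11 (0.24), and those nearest to HMGA2 were SLC13A3 (0.32) and NKX2-5 (0.33). No gene came close to LIN28A, with GJA1 at 0.90 and HRCT1 at 0.91. With a prior count of 0.5 in place of 2, AQP1 took rank 3 for H19 and MMP7 rank 4 for IGF2BP1, and the other 14 stayed among the nearest 2 of their member.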

How the data were processed

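RNA from 9 libraries of DMS273 cells was measured, 3 each of control, ATG7 KO and ATG7/SQSTM1 KO, grouped by the labels. Reads were aligned to hg38 with HISAT2, per the submitters' processing notes. The counting program was not given in the sources used here. Libraries were rRNA-depleted and strand-specific, per the labels' protocols. The authors deposited whole-number counts per gene with no normalization. The 362598 missing cells were read as 0, and identifiers were matched to GENCODE release 29 (58503 of 67140).

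Counts were tested with edgeR 4.0.16 (R 4.3.3): filterByExpr by group (minimum count 10), TMM factors of 0.977 to 1.01, and a robust quasi-likelihood fit (1 mean per group over all 9 libraries, 6 residual degrees of freedom). P-values were Benjamini-Hochberg adjusted over the 18847 genes tested, and a call is an adjusted p under 0.05. The script was checked on simulated counts. Levels are TMM-scaled CPM, mean ± SD over 3 libraries, or CPM per kb of merged exons. Likeness used log2 CPM with a prior count of 2. With counts as low as 7 in a library, LIN28A, HMGA2 and IGF2 are the least precise.

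The members and lists were chosen with earlier results of these data known. Besides the 8 members, the text names ATG7 and SQSTM1, up to 2 called genes of smallest p per list and comparison, the 2 genes most like each member, and overlapping genes of at least 10 counts. Genes named to spell out a count of 5 or fewer, the other genes of the IGF axis, the neighbours of H19 and IGF2BP1, the markers, and overlapping genes with fewer counts were chosen after their values were seen. Some genes counted in the lists are not reported here by name. Alternatives were RLE size factors, library totals, other low-count filters, DESeq2 1.42.0, fits of the 6 libraries compared, a replicate block, and each library left out in turn.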

Additional observations from a re-analysis of the deposited data

How the results depend on the processing

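The numbers of genes called stayed within 1.5 times of the reported ones under all alternatives run, as did the members called. With each library left out in turn, genes called ran from 9939 to 10182 (ATG7 KO against control), 6361 to 6538 (ATG7/SQSTM1 KO against control) and 10748 to 10819 (between the knockouts), and members called from 4 to 6, at 5, and from 6 to 7. A mean of at least 1 CPM drops LIN28A and HMGA2. The log2 changes of H19, IGF2BP1, IGF2BP2 and IGF2BP3 kept their sign under every alternative. With single libraries left out, H19 ran from 3.90 to 4.12 in ATG7 KO and IGF2BP1 from −2.60 to −2.55 in ATG7/SQSTM1 KO. IGF2BP3 in ATG7 KO ran from −0.10 to −0.01 in the same fits. The change of IGF2BP3 between the knockouts went from 0.27 to 0.30 with library totals alone. LIN28B in ATG7/SQSTM1 KO stayed within 0.06 of 0 and took either sign. Same-numbered libraries deviated from their group means with correlations of −0.287 to 0.0757 over 11969 genes. Libraries of different number and group ran from −0.148 to 0.274, so no pairing by number was seen. These values cannot tell whether same-numbered libraries were handled together. With the replicate block 10564, 7137 and 11262 genes were called, and members called were 5, 5 and 7 as without it. The call of DNMT1 in the double knockout was also lost with RLE factors, no filter, a 1 CPM filter, the 6 libraries alone and the block. The other oncofetal genes had 4 higher in the double knockout in the fit of 6 libraries and 4 lower between the knockouts with DESeq2. The cause of these shifts was not tested. Depth limits LIN28A, HMGA2 and IGF2, with at most 152 counts in any library.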
